A study of Mus with 4 samples.

Results

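The mitochondrial respiratory chain genes described here are the nuclear genes whose symbols name a subunit or a complex I assembly factor of the chain and of the ATP synthase. They were chosen by symbol, as every probe of the array whose gene symbol begins with Ndufa, Ndufb, Ndufc, Ndufs, Ndufv, Uqcr or Atp5, begins with Cox followed by a digit from 4 to 8, or is Sdha, Sdhb, Sdhc or Sdhd. The symbols alone decide which genes these are. It took 95 of the 26893 named genes of the array, read by 145 of 56605 probes. Of the 95 genes, 58 had 1 probe and 37 had several, up to 4 for Sdha. The annotation deposited with the values places 83 of the 95 genes in the oxidative phosphorylation pathway of KEGG and gives 92 a Gene Ontology term for the mitochondrion, which fits their name. Those outside the pathway were the 8 complex I assembly factors, Ndufa11b, Ndufb1-ps, Atp5s and Atp5mpl.

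The samples were RNA from an immortalized murine podocyte cell line that had been differentiated for 10 to 14 days. In 2 samples, the controls, the cells received a lentivirus that carries the fluorescent protein Venus, and in 2 one that carries active, N-terminal OASIS (Creb3l1), a transcription factor of the endoplasmic reticulum membrane whose N-terminal part is released to the nucleus. Both groups were kept with virus for 24 h at a multiplicity of infection of 200 to 500, and RNA was taken 48 h after the virus was added, so that all 4 samples carry a lentiviral vector and no uninfected cells were compared. The viruses were made from the vector pCSII-EF, and no source says that the 2 samples of a group came from separate cultures, so that the p-values measure the spread between these samples, which may be technical. The comparison asks which transcripts OASIS alters in podocytes.

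Mitochondria oxidise NADH at complex I and succinate at complex II, pass the electrons through ubiquinone to complex III and through cytochrome c to complex IV, where oxygen is reduced, and use the proton gradient built on the way to make ATP at complex V. Most of the subunits are encoded in the nucleus and imported, while a few hydrophobic ones are encoded in mitochondrial DNA. Complex I has a catalytic core surrounded by accessory subunits and needs dedicated assembly factors. Several complex IV subunits exist in forms restricted to heart, skeletal muscle, lung or testis beside a common form. Podocytes, the cells that wrap the glomerular capillaries, draw ATP from this chain and from glycolysis.

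Every RNA sample had an Agilent array of its own, of 1 colour, and the arrays shared 1 slide and 1 scan. Between 33938 and 34418 of 59305 spots were well above background on an array, and 0 were saturated. Levels are given as log2 intensity relative to the 75th percentile of the array, and a change is the mean level with OASIS minus that with Venus on this scale, fitted by limma, with p-values adjusted by the Benjamini-Hochberg method across the 31590 tested probes. A probe is called here at an adjusted p under 0.1, and is past the threshold of the study when it also changed more than 2-fold. The study names a q-value without its test, and limma's adjusted p stands in for it here. With 2 arrays a group the smallest two-sided p of an exact permutation test is 0.333, and the number of arrays limits the precision. Of 15 podocyte marker genes, 11 had a probe well above background on all 4 arrays, among them Wt1, Synpo and Podxl, whereas others, such as Tcf21 and Ptpro, had none on any array and Nphs1 on only 1. Of the markers of other cells, 4 of 6 mesangial, 2 of 6 endothelial, 4 of 8 tubular and 4 of 5 macrophage genes were well above background on all 4 arrays, while Kdr, Cdh5, Tek and Emcn of endothelium, Umod, Slc12a1 and Slc12a3 of tubules and Adgre1 of macrophages were so on none. The linear level relative to the 75th percentile, summed over the tested genes of a list, was 76.3 and 77.2 with Venus and 61.1 and 62.6 with OASIS for mesangial genes and 18.5 and 17.5 against 14.6 and 14.3 for macrophage genes. It was 21.9 and 29.8 with Venus and 22.4 and 37.9 with OASIS for tubular genes, 1.64 and 1.88 against 2.17 and 2.59 for endothelial genes, and 157 and 151 against 144 and 148 for podocyte genes. By the brightest probe of each gene, 18.7% of all genes were called higher and 18.2% lower, and 8.07% were past the threshold of the study. Among the markers, called higher and lower were 0 and 2 of 5 tested mesangial genes, 1 and 1 of 4 macrophage genes, 1 and 1 of 4 tubular genes, 1 and 0 of 2 endothelial genes and 2 and 1 of 11 podocyte genes. Of these calls 4 were past the threshold of the study: Wt1, a podocyte transcription factor, rose by 4.62, Cd2ap, an adaptor of the slit diaphragm, by 1.09 and Lrp2, megalin of the proximal tubule, by 1.62, while Ren1, renin, of the mesangial list, fell by 2.90 (limma adjusted p from 0.00216 to 0.0148). The part of these cells' genes in the results was not tested. The only probe for Creb3l1 gave a change of -0.17 (limma adjusted p = 0.298), and whether it can read the vector's insert was not analysed here, so that it does not test the labels.

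The nuclear genes of the respiratory chain differed little between podocytes with OASIS and with Venus. Of the 95 genes, 91 were well above background on all 4 arrays with at least 1 probe, and these 91 genes, with 132 probes, were tested. Past the threshold of the study were 2 of the 132 probes, both lower with OASIS, for Ndufv3 and Cox6a2, where 8.36% of all probes tested were past it, 5.89% higher and 2.47% lower. Without the fold limit, 9 of the 132 probes were called (6.82%), 4 higher and 5 lower, against 36.7% of all probes, 17% higher and 19.7% lower. By the brightest probe of each gene, 6 of 91 genes were called, 3 higher and 3 lower, against 36.8% of all genes, and 1 of 91, Cox6a2, was past the threshold of the study, against 8.07%. The remaining 123 probes did not pass, which does not show that they were equal in the groups. The count of 9 depended on the processing: it was 24 with an intensity trend in limma, where 41.2% of all probes were called, 18 with normexp background correction (39% of all probes), 5 with no filter on dim probes (13.3%) and 4 with the methods' t-test (6.43%), 2 of them among the 9. It was 4 without Venus replicate 1 (11.5% of all probes), 2 of them among the 9, 2 without Venus replicate 2 (13.1%), 0 of them higher, and 6 without OASIS replicate 1 (29.8%).

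The size of the changes was small as well as the number of calls. The median change of the member probes was 0.04, with quartiles of -0.08 and 0.12, beside a median of -0.07 and quartiles of -0.33 and 0.22 over all probes. The change was under 0.2 in size for 102 of 132 member probes (77.3%) and for 37% of all probes. The 95% interval of the fitted change lay within 2-fold in both directions for 128 member probes (97%), against 75.6% of all probes, and within 0.5 on the log2 scale for 100 (75.8%), against 28.5%. The 4 probes whose interval reached past 2-fold were the Cox6a2 probe, a dim probe each of Ndufv3 and Ndufs1, and the dimmest probe of Sdha, which was well above background on only 1 of the 2 Venus arrays.

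Member probes were mostly bright, and are therefore also set beside the bright probes of the array. A mean level over 3 was reached by 92 of the 132 member probes (69.7%) and by 13.9% of all probes. At this level, 3 of 92 member probes were called (3.26%), all 3 higher with OASIS and 0 past the threshold of the study, beside 23.9% called and 2.42% past the threshold among the 4383 such probes of the array. This level was chosen with the values in view. The median standard error of a change was 0.11 for member probes and 0.13 for all probes.

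**Figure D1:**
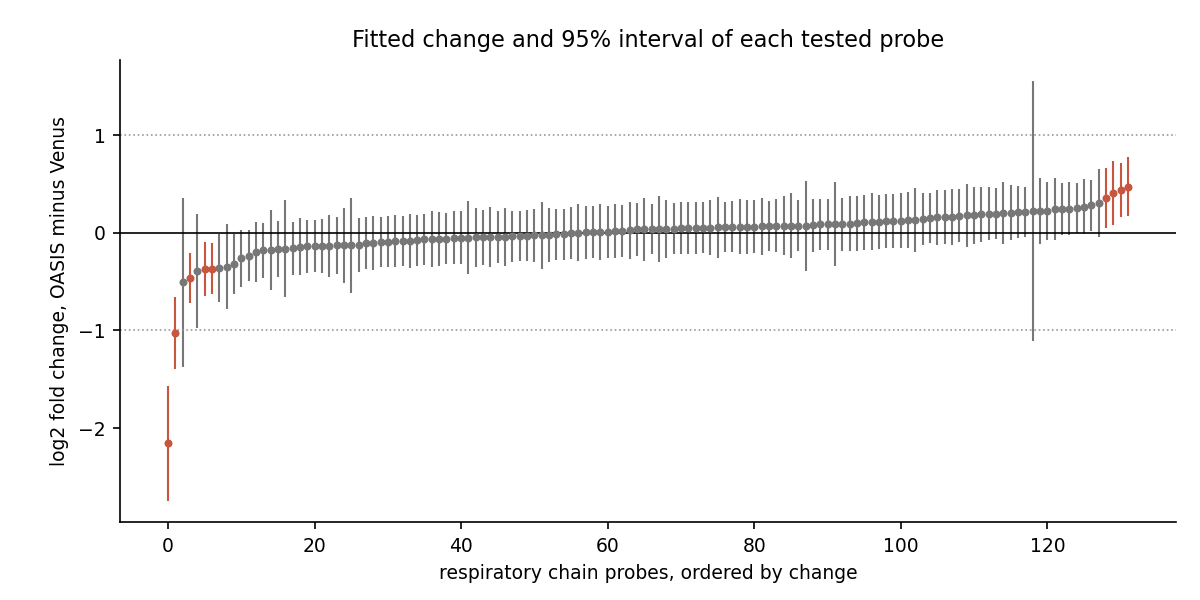
Fitted change (log2, OASIS minus Venus) of each of the 132 tested respiratory chain probes, ordered from lowest to highest, with vertical lines for the 95% interval; the dotted lines mark a 2-fold change and red marks the 9 probes with a limma adjusted p under 0.1. Most points lie within 0.2 of 0, 2 probes lie beyond a 2-fold fall, and the widest interval is that of the dimmest Sdha probe.

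No array stood apart for these genes. The median deviation of the member probes from their own mean over the 4 arrays was 0.02 and -0.05 with Venus and 0.04 and -0.01 with OASIS, so that arrays of the same group lay further apart than the group means. In 76 of the 132 probes (57.6%) the change was above 0, where 42.5% of all probes had such a change, and in 56 below. Both OASIS arrays lay above both Venus arrays for 49 probes (37.1%), where 28.6% of all probes did so, and below them for 32 (24.2%), where 39.4% of all probes did so. The groups overlapped for the other 51.

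Complex I, which takes electrons from NADH, was represented by 7 core and 31 accessory subunit genes, all tested. By the brightest probe 0 of the 7 core genes and 0 of the 31 accessory genes were called, where 36.8% of all genes were, with median changes of -0.07 and -0.02 beside -0.06 over all genes. Ndufs1, which carries iron-sulfur clusters, had levels of 3.75 and 3.87 with Venus and of 3.89 and 3.85 with OASIS, which overlap. Ndufv1, the subunit that binds NADH and FMN, had 5.31 and 5.32 with Venus and 5.26 and 5.23 with OASIS, a change of -0.07 (limma adjusted p = 0.645). Both OASIS arrays lay just below the Venus arrays for Ndufv1, by less than the fit could separate from 0.

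Among complex I subunits by the brightest probe, the highest change was that of Ndufs3, a core subunit of the peripheral arm, and the lowest that of Ndufs4, an accessory subunit of the same arm. Ndufs3 had 4.58 and 4.56 with Venus and 4.86 and 4.77 with OASIS, a change of 0.25 (limma adjusted p = 0.142). Ndufs4 had 4.43 and 4.35 with Venus and 4.11 and 4.28 with OASIS, a change of -0.20 (limma adjusted p = 0.269). In neither gene did the groups overlap, and neither passed the test. Other core genes lay between these, with changes of -0.16 for Ndufv2, -0.14 for Ndufs7 and 0.16 for Ndufs8. Ndufs3 was called in 2 of 15 alternatives, with normexp correction (limma adjusted p = 0.0669) and with the intensity trend (0.0503). The change of Ndufs4 ranged from -0.28 to -0.11 when 1 array was dropped.

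The complex I assembly factors help to build the complex and are not part of it. Of the 8 genes, 2 were called, both lower with OASIS, where 36.8% of all genes were called and 18.2% were called lower. The median change was -0.13 beside -0.06 over all genes, with 7 of 8 genes below 0, and the OASIS arrays lay below the Venus arrays in 6 of the 8, where 39.4% of all genes did so. Ndufaf3, which acts early in assembly, had levels of 0.41 and 0.37 with Venus and of 0.01 and 0.04 with OASIS, and fell by 0.37 (standard error 0.10, limma adjusted p = 0.0591). Ndufaf5, an enzyme that modifies the core subunit Ndufs7, had 0.79 and 0.72 with Venus and 0.43 and 0.34 with OASIS, and fell by 0.37 (standard error 0.10, limma adjusted p = 0.0671). Its dimmer tested probe gave a similar value that did not pass, -0.36 (limma adjusted p = 0.117). That probe was called with the replicate number as a block (limma adjusted p = 0.0639) and with the authors' scaled values (0.0724). It was also called with normexp correction (0.0926) and with the intensity trend (0.0843). The groups did not overlap at any of these 3 probes. The only assembly factor above 0 by its brightest probe was Ndufaf6, at 0.85 and 0.79 with Venus and 1.08 and 0.93 with OASIS, a change of 0.18 (limma adjusted p = 0.289). Without Venus replicate 1 or Venus replicate 2, neither Ndufaf3 (limma adjusted p = 0.320 and 0.268) nor Ndufaf5 (0.346 and 0.260) was called, and without OASIS replicate 1 Ndufaf3 was not called (0.122), nor was either gene without OASIS replicate 2 (0.102 for Ndufaf3 and 0.144 for Ndufaf5). Their changes stayed between -0.38 and -0.35 and between -0.42 and -0.32 in these fits, in which fewer of all probes were called as well, 11.5%, 13.1%, 29.8% and 33.9% in the same order against 36.7% with all 4 arrays.

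Complex II, which oxidises succinate and is also an enzyme of the TCA cycle, has 4 genes, and their values ran in both directions. Sdhd, a membrane anchor of the complex on chromosome 9 in band qA5.3, had 4.38 and 4.21 with Venus and 4.79 and 4.61 with OASIS. It rose by 0.41 on the log2 scale, a 1.33-fold change (standard error 0.13, limma adjusted p = 0.0797), and the groups did not overlap. Sdha, the flavoprotein that holds the catalytic site, was lower with OASIS on both arrays, at 4.16 and 4.11 against 4.38 and 4.36 with Venus, a change of -0.23 that did not pass (limma adjusted p = 0.150). This Sdha probe was called in 2 of 15 alternatives, with normexp correction (limma adjusted p = 0.0638) and with the intensity trend (0.0565). Its partner Sdhb, which carries iron-sulfur clusters, had 5.30 and 5.15 with Venus and 5.34 and 5.21 with OASIS, which overlap. The second anchor, Sdhc, had a change of -0.09 (limma adjusted p = 0.542).

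Complex III passes electrons from ubiquinol to cytochrome c. Of its 8 genes 1 was called, where 36.8% of all genes were, and the median change was 0.07, beside -0.06 over all genes. Uqcrh, the hinge protein that helps cytochrome c1 to meet cytochrome c, on chromosome 4 in band qD1, had levels of 5.77 and 5.69 with Venus and 6.18 and 6.0 with OASIS. It rose by 0.36 (standard error 0.12, limma adjusted p = 0.0889), and the groups did not overlap. Uqcr11, a small subunit, had a change of 0.31 that did not pass (limma adjusted p = 0.157). The Rieske protein Uqcrfs1 had 4.05 and 4.03 with Venus and 4.22 and 4.29 with OASIS, a change of 0.21 (limma adjusted p = 0.185). With the intensity trend, Uqcr11 (limma adjusted p = 0.0596) and Uqcrfs1 (0.0792) were called, where 41.2% of all probes were. Uqcr11 was also called with normexp correction (limma adjusted p = 0.0723), where 39% of all probes were. The core protein Uqcrc1, the lowest of the complex, had 4.37 and 4.31 with Venus and 4.38 and 4.22 with OASIS, so that the groups overlapped, and Uqcrc2 likewise overlapped, with a change of 0.02.

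Complex IV reduces oxygen. Its 12 commonly expressed nuclear genes, Ndufa4 and Cox7a2l included, held 0 calls, where 36.8% of all genes were called. A change above 0 was found in 11 of them (43.9% of all genes), with a median of 0.11 beside -0.06 over all genes, and both OASIS arrays lay above both Venus arrays in 8, where 31.5% of all genes did so. The highest was Ndufa4, named for complex I but a subunit of complex IV, with 4.57 and 4.58 with Venus and 4.88 and 4.83 with OASIS, a change of 0.28 just outside the limit (limma adjusted p = 0.103). It was called in 4 of 15 alternatives, among them the intensity trend (limma adjusted p = 0.029). Next came Cox7a2, with a change of 0.27 (limma adjusted p = 0.139), Cox7a2l, which takes part in joining complexes III and IV into supercomplexes, with 0.25 (limma adjusted p = 0.145), and Cox6a1 with 0.21 (limma adjusted p = 0.174). With the intensity trend, Cox7a2, Cox7a2l and Cox6a1 were called as well (limma adjusted p = 0.0479, 0.0509 and 0.0654), where 41.2% of all probes were. With normexp correction, Cox7a2 and Cox7a2l were called (limma adjusted p = 0.0604 and 0.0694), where 39% of all probes were. Cox5a had 6.48 and 6.39 with Venus and 6.52 and 6.53 with OASIS, a change of 0.09. Cox4i1, the only one of the 12 below 0, had 6.78 and 6.77 with Venus and 6.72 and 6.67 with OASIS, a change of -0.08 (limma adjusted p = 0.595).

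Complex V, the ATP synthase, consists of the F1 head that makes ATP and the Fo part with its stalks, through which protons flow. Of 5 F1 genes 1 was called, and of 12 genes of Fo and the stalks 0 were, where 36.8% of all genes were called, with median changes of 0.01 and 0.07 beside -0.06 over all genes. Atp5a1, the alpha subunit, had levels of 5.58 and 5.53 with Venus and 6.04 and 5.94 with OASIS at its brighter probe, which rose by 0.44 (standard error 0.10, limma adjusted p = 0.0447). At its other probe the groups overlapped, with a change of -0.05 (limma adjusted p = 0.831). The beta subunit Atp5b, which with alpha forms the catalytic sites, had 6.72 and 6.68 with Venus and 6.94 and 6.86 with OASIS, a change of 0.20 at its brightest probe that did not pass (limma adjusted p = 0.215), and its other 2 probes overlapped between the groups, with changes of -0.18 and 0.04. The 3 genes for the proton-carrying c subunit had changes of 0.24 for Atp5g1, 0.07 for Atp5g2 and 0.16 for Atp5g3, none called. With the intensity trend, the brightest probes of Atp5b (limma adjusted p = 0.0935) and Atp5g1 (0.0895) were called, where 41.2% of all probes were. The lowest of the complex by the brightest probe was Atp5s, a coupling factor of the synthase, at -1.48 and -1.45 with Venus and -1.88 and -1.68 with OASIS, a change of -0.32 (limma adjusted p = 0.116). It was called in 3 of 15 alternatives, namely with the replicate number as a block (adjusted p = 0.0947), with the intensity trend (0.0977) and without OASIS replicate 2 (0.0875). A dim Atp5f1 probe had a lower change, -0.39 (limma adjusted p = 0.251), which was -0.69 without OASIS replicate 1.

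**Figure D2:**
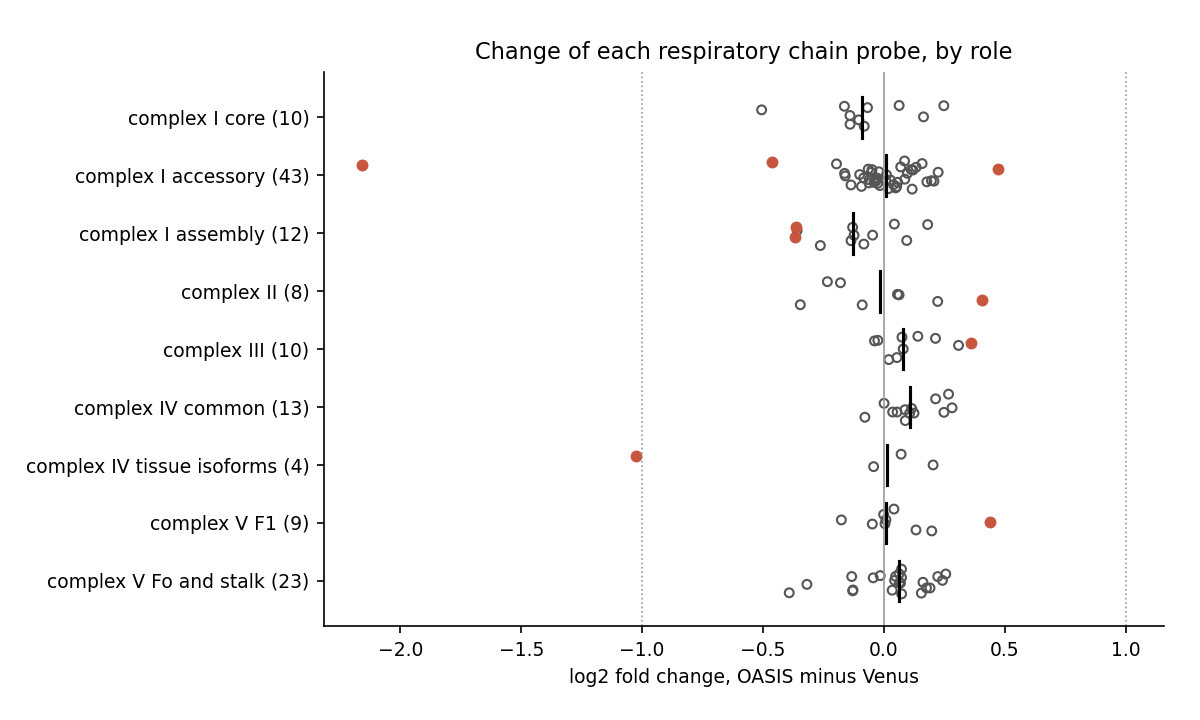
Change (log2, OASIS minus Venus) of each tested respiratory chain probe, 1 point a probe, by role, with the number of probes in brackets and a black bar at the median of each role; red points had a limma adjusted p under 0.1 and dotted lines mark a 2-fold change. The 2 points past a 2-fold fall are a Ndufv3 probe among the accessory subunits of complex I and Cox6a2 among the tissue isoforms of complex IV.

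The largest change of any member was that of 1 Ndufv3 probe. Ndufv3, on chromosome 17 in band qB1, encodes an accessory subunit of the NADH-binding part of complex I that exists in a long and a short form. Probe A_55_P2022634, annotated to an Ensembl transcript, had levels of -0.11 and -0.47 with Venus and of -2.20 and -2.69 with OASIS, far below and without overlap. It fell by 2.16, so that it was 4.46-fold lower with OASIS (standard error 0.22, limma adjusted p = 0.00825). Probe A_55_P2184180, annotated to a RefSeq transcript, had 4.01 and 4.13 with Venus and 4.31 and 4.25 with OASIS, a change in the other direction of 0.21 that did not pass (limma adjusted p = 0.220). Which form of the transcript each probe reads was not analysed here. The fall of the first probe stayed past a limma adjusted p of 0.1 without any 1 of the 4 arrays, with changes from -2.40 to -1.91, but the methods' t-test did not call it (adjusted p = 0.122).

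Cox6a2, on chromosome 7 in band qF3, encodes the form of complex IV subunit 6A found in heart and skeletal muscle. Its single probe had levels of -0.02 and -0.26 with Venus and of -1.06 and -1.26 with OASIS, without overlap. It fell by 1.02, a level 2.03-fold lower with OASIS (standard error 0.14, limma adjusted p = 0.0140). Cox6a1, the common form of the same subunit, had 7.54 and 7.54 with Venus and 7.75 and 7.75 with OASIS, above the Venus arrays and not called. The fall of Cox6a2 was just past 2-fold. It was -0.91 without Venus replicate 1 (limma adjusted p = 0.081) and -0.92 without OASIS replicate 2 (limma adjusted p = 0.046), both short of 2-fold. Under the methods' t-test its adjusted p was 0.125, and 0 member probes were past the threshold of the study.

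The other tissue isoforms were dim or not tested. Cox4i2, the lung form of subunit 4, had -1.05 and -1.22 with Venus and -1.22 and -1.13 with OASIS, which overlap. The muscle form Cox7a1 had -2.96 and -3.05 with Venus and -2.90 and -2.97 with OASIS, also overlapping. The testis form Cox6b2 had -3.64 and -3.85 with Venus and -3.55 and -3.53 with OASIS, a change of 0.20 (limma adjusted p = 0.268). Its change was 0.31 without Venus replicate 1 and 0.10 without Venus replicate 2. Cox7b2, Cox8b and Cox8c, of testis, muscle and testis, were not well above background on any array and were not tested. Ndufa4l2, a relative of Ndufa4 known as a target of the hypoxia response, has 2 probes, of which 1 was well above background on Venus replicate 2 alone and the other on no array, so that it was not tested either.

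Single probes of Ndufab1 and Ndufa3, named after their values had been seen, were called while brighter probes of the same genes were not. Ndufab1, the mitochondrial acyl carrier protein that also sits in complex I, had at its dimmer probe 0.79 and 0.80 with Venus and 0.31 and 0.35 with OASIS. That probe fell by 0.46 (standard error 0.10, limma adjusted p = 0.0352), while the brighter one had a change of -0.03 (limma adjusted p = 0.820). Ndufa3, a small accessory subunit, had at its dimmest probe -1.82 and -1.85 with Venus and -1.27 and -1.45 with OASIS. That probe rose by 0.47 (standard error 0.11, limma adjusted p = 0.0472), while its 2 brighter probes had changes of 0.09 and 0.12 and were not called. At both called probes the groups did not overlap. The dimmest Ndufa3 probe is annotated to an Ensembl transcript, and its brighter probes to a RefSeq transcript.

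The smaller changes that were called kept their direction when any 1 array was left out. Such fits leave 1 array in a group, so only the size of the change is given for these probes. The 4 probes called higher were those for Uqcrh, Sdhd, Atp5a1 and Ndufa3. Without any 1 of the 4 arrays their changes stayed between 0.27 and 0.45 for Uqcrh and between 0.32 and 0.49 for Sdhd. They stayed between 0.39 and 0.49 for Atp5a1 and between 0.38 and 0.56 for Ndufa3. The methods' t-test called none of these 4 probes, with adjusted p-values of 0.193 for Uqcrh, 0.209 for Sdhd, 0.113 for Atp5a1 and 0.148 for Ndufa3, nor Ndufaf5 (adjusted p = 0.131). The probes it called higher were others, for Cox6a1 and Atp5mpl, with changes of 0.21 and 0.26. With no filter on dim probes, limma gave adjusted p-values of 0.159 for Uqcrh, 0.162 for Sdhd, 0.101 for Ndufa3 and 0.109 for Ndufaf5, so that these calls were lost too. Without Venus replicate 1 the calls beside those for Ndufv3 and Cox6a2 were for 2 dim probes not called on all 4 arrays. One, for Ndufa4l2, was past the threshold of the study there, with a change of -1.14, and was not tested on all 4 arrays, since it was well above background on only 1 of them, Venus replicate 2. The other, for Ndufs1, had a change of -0.96 there and of -0.51 on all 4 arrays (limma adjusted p = 0.312). Without OASIS replicate 1, dim probes of Atp5f1 and Sdha had changes of -0.69 and -0.55, against -0.39 and -0.35 on all 4 arrays. The called Ndufab1 probe had changes between -0.48 and -0.44 without any 1 of the 4 arrays.

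**Figure D3:**
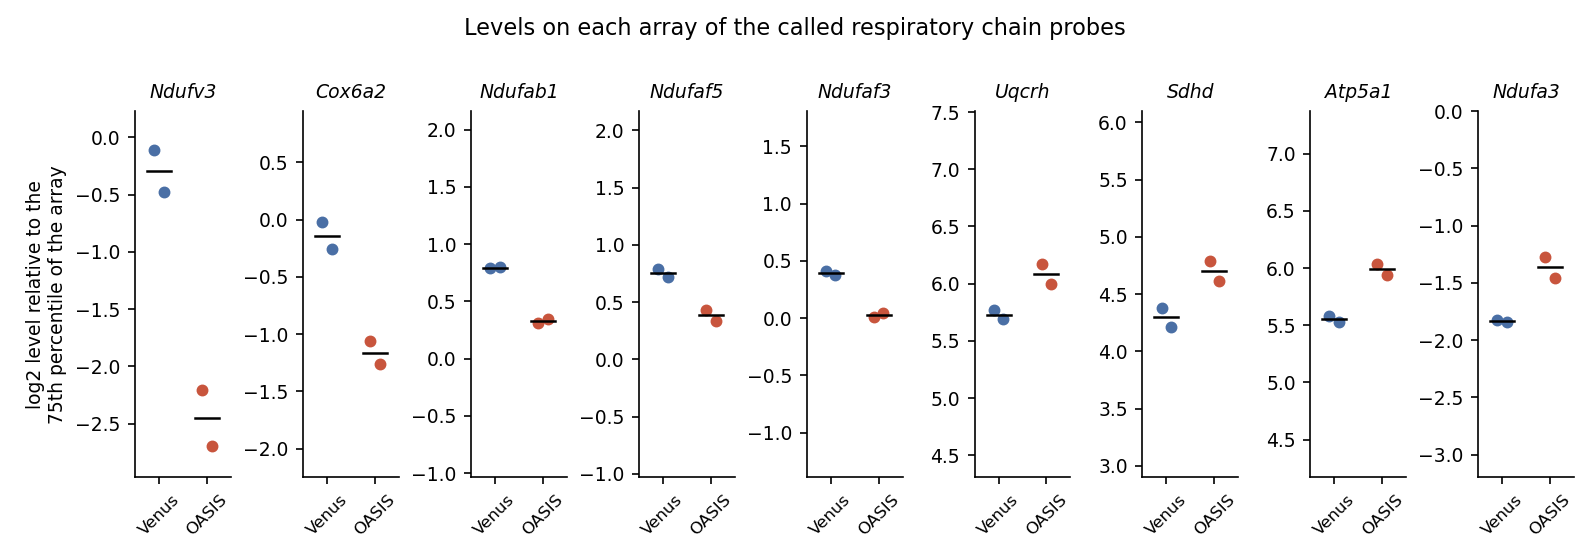
Levels (log2 relative to the 75th percentile of the array) on each Venus (blue) and OASIS (red) array of the 9 called probes, 1 panel a probe, with a black bar at the mean of each group of 2 arrays; the axes have equal length and different offsets. The groups do not overlap in any panel, and the distance is widest for Ndufv3 and Cox6a2.

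For 32 genes at least 2 probes were tested. The lowest and the highest change of a gene lay under 0.2 apart in 22 of the 32 genes, with a median distance of 0.09. They lay over 0.5 apart in 3 genes, namely 2.36 in Ndufv3 and 0.57 each in Ndufs1 and Sdha, where the dim probes were also those with wide intervals. The dimmer Ndufs1 probe had -5.36 and -4.45 with Venus, apart by more than the group means, and -5.55 and -5.27 with OASIS. Since 77.3% of member probes changed by under 0.2, a distance under 0.2 does not show that probes of a gene bear each other out. In 5 genes 1 of several tested probes was called, and no second probe of these genes was. Their probes lay 2.36 apart in Ndufv3, 0.49 in Atp5a1, 0.43 in Ndufab1, 0.39 in Ndufa3 and 0.008 in Ndufaf5. In 0 genes were probes called in opposite directions. The same counts over all genes of the array with several tested probes were not made. Whether a probe also reads related transcripts or pseudogenes was not tested.

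**Figure D4:**
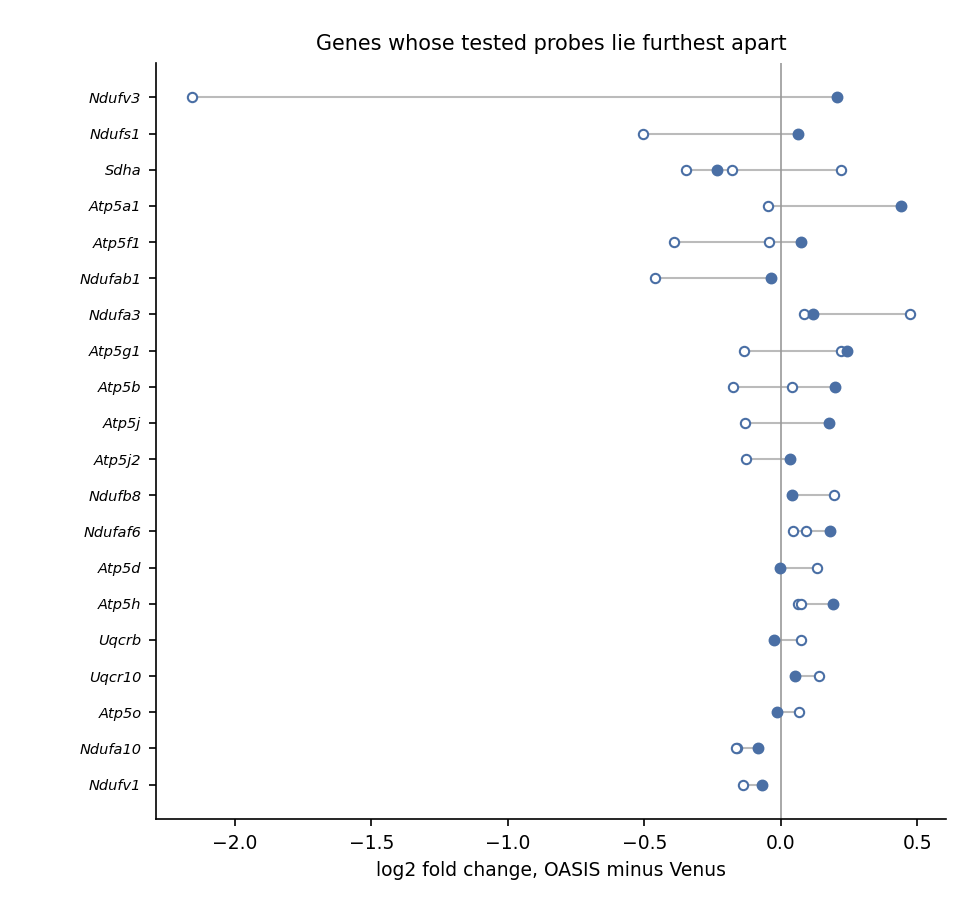
Change (log2, OASIS minus Venus) at each tested probe of the 20 genes with the largest distance between their lowest and highest probe, joined by a line and ordered by that distance; filled points are the brightest probe of a gene and open points the others. Ndufv3 stands at the top with its probes 2.36 apart, followed by Ndufs1 and Sdha at 0.57.

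The other genes of the pathway were read by the brightest probe of each gene, and are set beside 18.7% of all genes called higher and 18.2% called lower. Of the subunits encoded in mitochondrial DNA, 10 genes were tested, of which 1 was called lower and 0 higher. Of the 10, 9 had a change below 0, where 9149 of all 16313 genes had, and the OASIS arrays lay below the Venus arrays in 8, where 39.4% of all genes did so. The median was -0.15, beside 0.03 for the nuclear members and -0.06 over all genes. The called gene was ATP8, of complex V, with 4.30 and 4.18 with Venus and 3.68 and 3.78 with OASIS, which fell by 0.50 (standard error 0.11, limma adjusted p = 0.0374). CYTB of complex III had a change of -0.21 (limma adjusted p = 0.319) and COX1 of complex IV one of -0.12 (limma adjusted p = 0.473). The difference between mitochondrial and nuclear subunits was not tested.

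Assembly factors outside the symbol rule help to build complexes I to V. Of 39 genes 4 were called higher and 8 lower, 0 past the threshold of the study, with a median of -0.07. Coa5 and Taco1, both needed for complex IV, fell by 0.94 (limma adjusted p = 0.0117) and by 0.76 (limma adjusted p = 0.0220). Ttc19, which serves complex III, rose by 0.84 (limma adjusted p = 0.0103), and Cox11, which brings copper to complex IV, rose by 0.64 (limma adjusted p = 0.0225). Among 12 genes for the mobile electron carriers ubiquinone and cytochrome c, 1 was called higher and 3 lower, with a median of -0.08. Coq10b, which binds ubiquinone, fell by 0.69 (limma adjusted p = 0.0182). Cytochrome c itself, Cycs, had a change of 0.11 at its brightest probe (limma adjusted p = 0.538), while its dimmer probe rose by 0.49 (limma adjusted p = 0.0560). Cyc1, the cytochrome c1 of complex III that the symbol rule leaves out, had a change of -0.04. It was picked with the values in view.

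Regulators that set mitochondrial number and DNA were called in both directions, 3 of 17 higher and 2 lower, with a median of -0.02. Tfam, which packages mitochondrial DNA, had levels of 1.33 and 1.18 with Venus and 1.76 and 1.85 with OASIS, and rose by 0.55 (limma adjusted p = 0.0324). Twnk, the helicase of mitochondrial DNA, rose by 0.54 (limma adjusted p = 0.0271), and the coactivator Pprc1 by 0.51 (limma adjusted p = 0.0446). Gabpa, a transcription factor known to bind promoters of respiratory chain genes, had 0.83 and 0.79 with Venus and 0.41 and 0.09 with OASIS, and fell by 0.56 at its brightest probe (limma adjusted p = 0.0532). Its other probes went in both directions, 1 lower by 0.41 (limma adjusted p = 0.0471) and 1 higher by 1.23 (limma adjusted p = 0.00770), so that Gabpa has no single direction here. Nfe2l2, the antioxidant response factor, fell by 0.34 (limma adjusted p = 0.0896). Nrf1, a further regulator of these promoters, had a change of -0.015 at its brightest probe (limma adjusted p = 0.938), while its dimmest tested probe fell by 0.50 (limma adjusted p = 0.0665), and the coactivator Ppargc1a, dim on all arrays, one of -0.14 (limma adjusted p = 0.567). Its relative Ppargc1b had the lowest change of the list, -1.05, which did not pass (limma adjusted p = 0.149), with -3.13 and -1.84 with Venus and -3.62 and -3.46 with OASIS.

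The TCA cycle, which feeds the chain, had 4 of 14 genes called higher and 1 lower, with a median of 0.08. Sucla2 and Suclg1, subunits of succinyl-CoA ligase, rose by 0.86 (limma adjusted p = 0.0130) and by 0.74 (limma adjusted p = 0.0263), and Suclg2, of the same enzyme, had changes of -0.06 at its brightest probe (limma adjusted p = 0.746) and of -0.27 and -0.36 at its other tested probes, not called. The probes of citrate synthase, Cs, were called in opposite directions, the brighter one higher by 0.45 (limma adjusted p = 0.0389) and the dimmer one lower by 0.49 (limma adjusted p = 0.0508), so that it has no single direction here. Idh3b fell by 0.37 (limma adjusted p = 0.0614). Of 27 genes of glycolysis and the hypoxia response, 5 were called higher and 4 lower, with a median of -0.0034. Hk2, which makes glucose 6-phosphate, had 1.49 and 1.14 with Venus and 2.77 and 2.53 with OASIS, and rose by 1.33 (limma adjusted p = 0.0118). Pdk1, which restrains the entry of pyruvate into the TCA cycle, had 0.59 and 0.57 with Venus and 1.94 and 1.85 with OASIS, and rose by 1.32 (limma adjusted p = 0.00554). These 2 were past the threshold of the study, while Vegfa, a target of the hypoxia response, fell by 0.96 (limma adjusted p = 0.0135).

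Of 17 genes of mitochondrial protein import and chaperones, 3 were called higher and 0 lower, with a median of -0.01. Timm17b rose by 0.96 (limma adjusted p = 0.0127), Tomm70a by 0.69 (limma adjusted p = 0.0338) and Timm23 by 0.61 (limma adjusted p = 0.0319), all parts of the import machinery. Cyc1 and the lists for mitochondrial ribosomal proteins and the vacuolar ATPase were picked only once the values were known. The mitochondrial ribosomal proteins had 10 of 78 genes called higher, 1 of them past the threshold of the study, and 0 lower. Their median was -0.03 and their highest change 1.47. The vacuolar ATPase, which shares the KEGG pathway, had 1 of 20 genes called higher, 4 lower and a median of -0.13.

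**Figure D5:**
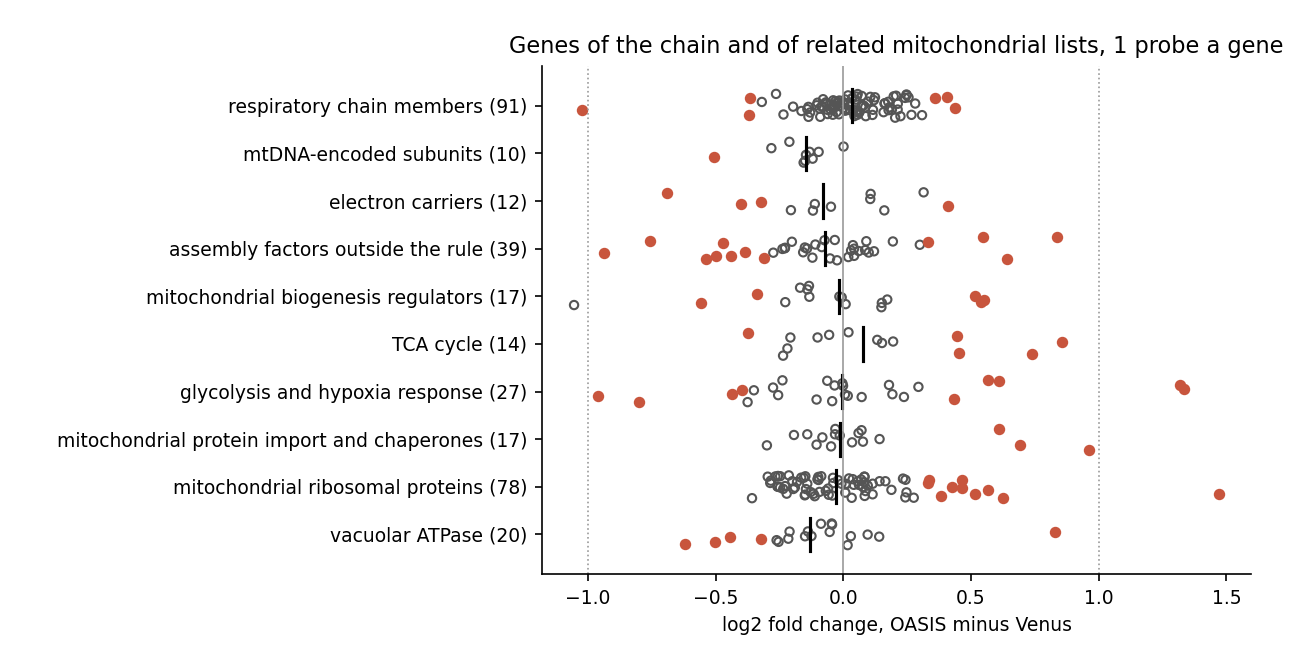
Change (log2, OASIS minus Venus) of each gene by its brightest probe, for the 91 tested respiratory chain members and for related lists, with the number of genes in brackets and a black bar at the median; red points had a limma adjusted p under 0.1 and dotted lines mark a 2-fold change. Of the 91 members 6 are red, and genes past a 2-fold rise are Hk2 and Pdk1 of glycolysis and the hypoxia response and 1 mitochondrial ribosomal protein.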

How the data were processed

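RNA of 2 Venus and 2 OASIS samples was measured on 1-colour Agilent arrays, grouped by the labels. The authors' scanner output, made with Agilent Feature Extraction 12.1.0.3, gives each spot's background-corrected intensity, its median intensities and quality marks. A deposited whole-series table holds scaled intensity, which is the corrected intensity times 1 factor per array (0.697, 0.684, 0.663 and 0.698), with a detection score per spot that was not used in the tests, gene symbols, bands and pathway terms. Coordinates and sequences were not used here.

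After removal of controls and of spots marked as outliers, log2 intensities were taken relative to the 75th percentile of the array and averaged per probe. A probe counted as well above background if 0.5 or more of its spots did, and was tested if this held on both arrays of at least 1 group. The R package limma 3.58.1 (R 4.3.3) was fitted to all 31590 probes (lmFit, eBayes, Benjamini-Hochberg). The threshold of the study's methods was a fold over 2 or under 0.5 with q under 0.1, used to pick genes with secreted proteins. The methods do not name the test behind q, and limma's adjusted p was used in its place. What is called the methods' t-test is the Student's t-test that they name for comparing 2 groups in general. With it, 726 of all probes and 0 member probes were past the threshold, against 2641 and 2 with limma. A gene was represented by its brightest tested probe. The fitting code was also run on simulated data with noise drawn independently for each probe and array. Such data hold no effect shared by the probes of an array, so the run does not bear on the calls.

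The members, lists and tests were chosen with earlier results of these data known. The rule for named genes took members past the threshold, the highest and lowest of each complex, 11 core subunits and 8 tissue isoforms. Of the members outside it, Ndufab1 and Ndufa3 are marked as such. Others outside it are given without a mark, among them Ndufaf3, which was called, Ndufv2, Sdhc, Uqcr11, Cox7a2, Cox6a1 and Atp5g1. Genes that are not members belong to the lists, apart from Creb3l1. For the lists the rule named only genes past the threshold, and the list genes given without being past it lie outside the rule. Results for some named genes are left out of the text. No test compared lists. Alternatives were quantile and median scaling, normexp correction (offset 50, on median intensities), the authors' scaled values, 2 other filters, outlier spots kept, an intensity trend, the methods' t-test, an adjusted p under 0.05, averaging the probes of a gene, a replicate block, and dropping each array in turn. With 1 slide there was no slide effect to fit.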

Additional observations from a re-analysis of the deposited data

How the results depend on the processing

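The low share of called members held under each alternative run on all 4 arrays, from 3.03% to 18.2% of member probes, against 6.43% to 43.5% of all probes. The highest of these came from the intensity trend, with 15 probes higher and 9 lower (14 and 6 genes), and from normexp correction, with 10 and 8 probes (9 and 5 genes), 1 member probe past the threshold of the study and 1222 of all probes past it, against 2641 in the fit of the report. Without a filter on dim probes, 1 probe and 1 gene were called higher. The methods' t-test called 2 probes higher and 2 lower (1 gene lower), of which 2, both lower, were among the calls of the report, 0 past the threshold, with 19 member probes at an unadjusted p under 0.05 and 726 of all probes past it. At an adjusted p under 0.05, 2 probes were higher and 3 lower (1 gene each). With the mean of a gene's probes, 5 genes were called lower. Dropping 1 array, with the lone array of a group taken to vary as the others do, gave 0 to 5 probes and 0 to 4 genes higher, 2 to 6 probes and 1 to 2 genes lower, 1 to 2 probes past the threshold (without Venus replicate 1, Ndufv3 and Ndufa4l2) and 2528 to 3287 of all probes past it, while 11.5% to 33.9% of all probes were called, against 36.7%. The median change of the members stayed between -0.0012 and 0.055 in every setting.

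Small changes turned direction for Cox4i2 (0.041 without Venus replicate 1 and 0.0016 without OASIS replicate 1, in a range of -0.127 to 0.041), Sdhb (-0.020 without Venus replicate 2 and -0.0093 without OASIS replicate 1, in a range of -0.020 to 0.132) and Uqcrc1 (0.045 without OASIS replicate 2, in a range of -0.123 to 0.045). The Ndufv3 and Cox6a2 falls ranged from -2.40 to -1.78 and from -1.14 to -0.87 and had an adjusted p under 0.1 in 14 of 15 alternatives each, the exception being the methods' t-test. The labels tie same-numbered arrays of the groups by a number alone, and do not say whether more is shared. The differences between replicates 1 and 2 correlated at 0.26 across probes between the groups. With a replicate block 11 member probes and 13733 of all probes were called, against 9 and 11606. The cause of these differences was not tested.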
